A study of Carassius auratus with 4 samples.

Results

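The large (60S) subunit of the cytosolic ribosome was represented on a goldfish (Carassius auratus) cDNA array by 57 clones, each printed in 2 spots, of 8100 clones in all. Clones were taken by their printed description, which had to name a 60S ribosomal, 60S acidic ribosomal or large-subunit ribosomal protein, and mitochondrial ribosomal proteins and ribosomal protein kinases were left out. The 57 clones carry 29 protein names, of which 11 have 1 clone, 11 have 2, 5 have 3, 1 has 4 (L35a) and 1 has 5 (L5). The rule reads the printed description alone. A further clone described by the bare symbol L8 fell outside the rule, and its log2 ratio was -0.020 ± 0.080 (SE, 4 arrays).

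Dispersed cells of male and female goldfish pituitaries received 10 nM goldfish secretoneurin, a peptide cut from secretogranin II, in static incubation for 12 h. Control cells came from the same kind of pituitaries and are described in the labels as having had no incubation, so the peptide and the incubation itself cannot be told apart by the labels. Each of 4 arrays held 1 secretoneurin RNA and 1 control RNA, with secretoneurin RNA in the dye Cy5 on replicates 1 and 3 and in Cy3 on replicates 2 and 4. No age, strain or genotype was given, the cells were a mixture of both sexes, and nothing in the labels ties the pairs to separate cultures. The p-values therefore cover the spread between these sample pairs alone, part or all of which may be technical.

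The 60S subunit joins the amino acids of a growing protein, and its proteins fold, brace and flank a catalytic core made of ribosomal RNA. Its proteins are needed in near equal amounts and their genes are among the most highly expressed of most cells, including the hormone-secreting cells of the pituitary. In vertebrates their mRNAs share a start that couples their translation to growth signals, so mRNA level and protein output can differ. Goldfish carry duplicated genes for many proteins, and whether clones of 1 name come from 1 gene is not stated in the labels or files.

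All values below are log2 ratios of secretoneurin over control, so a value below 0 is a lower signal in secretoneurin cells. Clones needed values from 3 or more arrays to be tested, which 8089 had, all 57 of the 60S clones among them. Replicates 2 and 4, which have the same dye orientation, opposed each other, with Pearson r = -0.61 over 8026 clones, while replicates 1 and 3 had r = 0.25 over 8016 clones. The rank correlation of replicates 2 and 4 was only -0.13, and r was -0.38 in the authors' deposited table. A tail of 321 clones, 3.97% of those tested, lay above 0.7 on replicate 2 and below -0.7 on replicate 4, and 0 clones lay the other way, with the size of 0.7 set after the values were seen. The 60S group had 1 clone in that tail (L8 clone 39o02). On each of the 4 arrays the labels and the file headers matched in the dye of each RNA, so the stated orientation was kept. Results are also given with replicate 2 or 4 turned or left out. Marker clones of the pituitary were found for growth hormone, thyrotropin and gonadotropin, 4 clones, of which 3 exceeded background in both channels of every array, and none matched prolactin, proopiomelanocortin or somatolactin. Lists for other cells were also matched on description. Red blood cells were taken by globin and muscle by myosin, troponin, parvalbumin or tropomyosin. Leukocytes were taken by MHC class, invariant chain or immunoglobulin. Whether the clones so matched are particular to those cells was not tested. In these lists 0 of 13 red blood cell, 10 of 96 muscle and 3 of 27 leukocyte clones were that bright.

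The 60S transcripts gave some of the strongest signals on the arrays. Of the 57 clones, 47 (82.5%) exceeded background in both channels of each of the 4 arrays, against 839 clones (10.4%) of all tested. When all tested clones were put in 20 bins of equal size by brightness, 30 of the 60S clones fell in the brightest bin and 49 in the 3 brightest. The exceptions were 5 clones with control signal never well above background on the 4 arrays (L5 53c11, L7 51m01, L15 53f19, L18 21g08 and L35a 30b23). No fold is given for these 5, since the lower bound of each was under 1, although they stay in counts and medians. A further 5 clones were above background on some arrays only.

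No 60S clone changed by the test. limma called 0 of 57 (0% of all 8089 tested) and gave an adjusted p = 0.998 for each of the 57 clones. At an unadjusted p under 0.05 in limma, 4 of the 60S clones were lower (7.02%) and 0 were higher, where 1.56% of all clones were lower, 1.2% higher and 2.76% either. Among clones above background in both channels throughout, 3 of 47 of the 60S clones were lower and 0 higher. Of all 839 such clones, 20 (2.38%) were lower and 1 was higher, and their median ratio was -0.020. The lean to lower values at small p was thus also present over bright clones in general. An unmoderated test called 0 of 57 and put 7 lower and 0 higher at an unadjusted p under 0.05. Of all 8089 tested clones it put 233 lower and 156 higher at that level, or 4.81% in either direction. The 4 clones lower by limma are clones of L7, L23, L6 and L8. The median SE of a 60S clone was 0.066, and the half-width of its 95% confidence interval ran from 0.141 to 0.957 with a median of 0.18. The interval lay inside -0.5 to 0.5 for 54 clones and inside -1 to 1 for 56, the exception to the latter being L8 39o02.

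The fitted ratios were small and lay more often below 0 than above. Over the 52 clones with both groups above background on at least 1 array they ran from -0.29 to 0.14, with 40 below 0, 12 above and a median of -0.062. Over all 57 the median was -0.060, with 42 clones (73.7%) below 0 and 15 above. Over all tested clones the median was 0.0014 and 49.4% were below 0. Clones of equal brightness outside the group, weighted to the bins of the 60S clones, had 52.9% below 0. After subtraction of the median of equally bright clones, the median of the 60S clones was -0.039 and 40 of 57 (70.2%) were below 0. By protein name, 25 of 29 means were below 0 and 4 above. Among the latter, L5 had a mean of 0.030 over its 5 clones, but -0.00078 over the 4 above background in both groups. Bulk RNA was measured, so a difference in the mix of cells and a difference in these RNAs per cell cannot be told apart.

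The single arrays did not share 1 direction. The median of the 60S clones was -0.22 on replicate 1, 0.093 on replicate 2, -0.15 on replicate 3 and 0.053 on replicate 4, or -0.056 ± 0.15 (SD, n = 4). It was thus below 0 where secretoneurin RNA carried Cy5 and above 0 where it carried Cy3. Below 0 were 49 of 57 clones on replicate 1, 15 of 57 on replicate 2, 41 of 57 on replicate 3 and 23 of 56 on replicate 4. Other clones of the brightest bin, which held 30 of the 60S clones, had medians of 0.018, -0.019, -0.0094 and 0.039 on replicates 1 to 4. In the next bin the median of other clones was below 0 on replicates 1, 3 and 4 and above 0 on replicate 2. There P2 clone 39m11, at -0.32, -0.026, -0.14 and 0.24, stood at -0.27, -0.11, -0.088 and 0.30 against its bin. Each set against its own bin, the 60S clones stood at a median of -0.19, 0.072, -0.15 and 0.036. The SD of the median over the 4 arrays was larger than the median itself, but it includes the difference between the dye orientations. The fit holds that difference as a term of its own. Within an orientation the medians lay closer, at -0.22 and -0.15 in Cy5 and at 0.093 and 0.053 in Cy3.

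**Figure D1:**
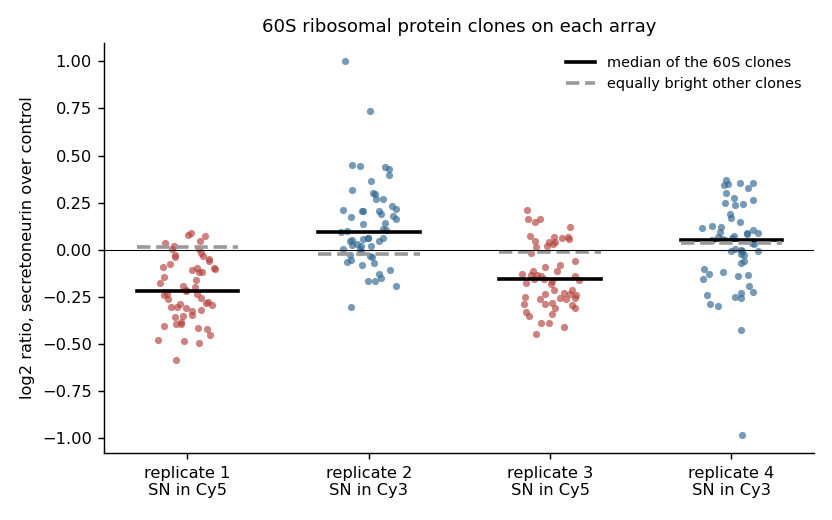
Log2 ratio of secretoneurin over control (y axis) of each 60S clone (points) on the 4 arrays (x axis), with secretoneurin RNA in Cy5 in red and in Cy3 in blue. Black bars are medians of the 60S clones (-0.22, 0.093, -0.15 and 0.053) and lie below 0 on replicates 1 and 3 only. Dashed grey bars are medians of the other clones of the brightest bin, and the next bin had other medians.

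Few clones kept 1 direction over the arrays, both in the group and among all tested clones. Of the 56 clones of the group with a value on all 4, 2 were lower on all 4 and 2 were higher on all 4. Of the latter, L5 53c11 had no control signal well above background. Among all tested clones with a value on all 4, 5.55% were lower and 5.17% higher. By contrast, 17 of 56 (30.4%) were lower on replicates 1 and 3 and higher on replicates 2 and 4, against 8.85% of the other clones, a pattern looked for after the values were seen. Both spots of a clone lay below 0 for 34 clones on replicate 1 and 32 on replicate 3, but for 4 on replicate 2 and 16 on replicate 4. The first and the second spot of a clone, in file order, differed by a median of 0.199, 0.184, 0.186 and 0.177 on replicates 1 to 4. That difference is larger than the fitted median, but it is between single spots and does not measure the spread of a median over clones.

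The dye term of the fit, Cy5 over Cy3, had a median farther from 0 than the secretoneurin term. It was -0.14 over the 60S clones and -0.0033 over all tested clones, and 51 of 57 were below 0 against 51.4% of all. Relative to equally bright clones the median was -0.13, with 50 of 57 below 0. limma called 0 of 57 for the dye (0% of all 8089), with a smallest adjusted p = 0.715, and 15 of 57 (26.3%) had an unadjusted p under 0.05 against 6.65% of all clones. The median dye term was -0.32 after median centring without loess, where 55 were below 0, and -0.025 in the authors' deposited table, where 37 were below 0. The part of the dye in the array pattern of the 60S clones was not tested apart from this term.

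**Figure D2:**
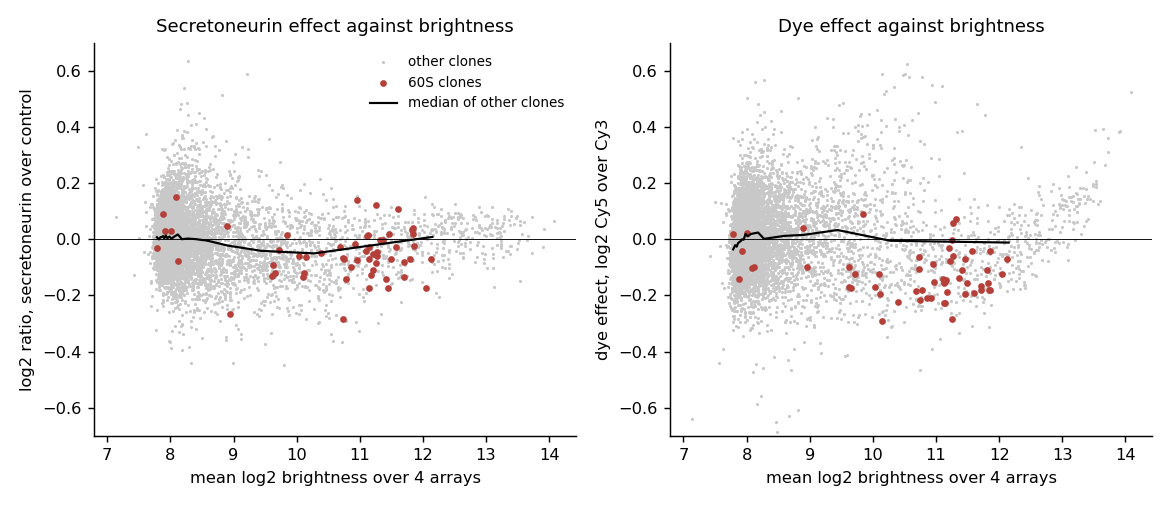
Fitted secretoneurin effect (left, log2) and dye effect (right, log2 Cy5 over Cy3) against mean log2 brightness over 4 arrays, for 60S clones in red and other clones in grey, with the black line the median of other clones in 20 bins of brightness and some other clones outside the y range. The 60S clones crowd at the bright end, with medians of -0.060 for secretoneurin and -0.14 for dye, below the line of other clones in both panels.

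The size of the group median moved with single arrays and with the dye term. With the dye term it was -0.038 without replicate 1, -0.058 without replicate 2, -0.074 without replicate 3 and -0.034 without replicate 4. With replicate 4 turned it fell to -0.013, with 29 of 57 clones below 0 and 0 of 57 called (0.0124% of all clones), and the difference from equally bright clones to -0.0026. With replicate 2 turned the median was -0.050 and the difference -0.047. With no dye term it was -0.0086, -0.099, -0.024 and -0.072 without replicates 1, 2, 3 and 4. The differences from equally bright clones were then 0.022, -0.074, -0.0073 and -0.069, so the first lay above 0. With an array left out the dye orientations are unequal in number, so part of the dye effect enters these fits. Median centring without loess moved the median to -0.16, while the difference from equally bright clones stayed at -0.040. In the authors' deposited table the median was -0.068, with array medians of -0.086, -0.13, -0.074 and 0.082, so there replicate 2 lay below 0 and replicate 4 was the only array above.

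**Figure D3:**
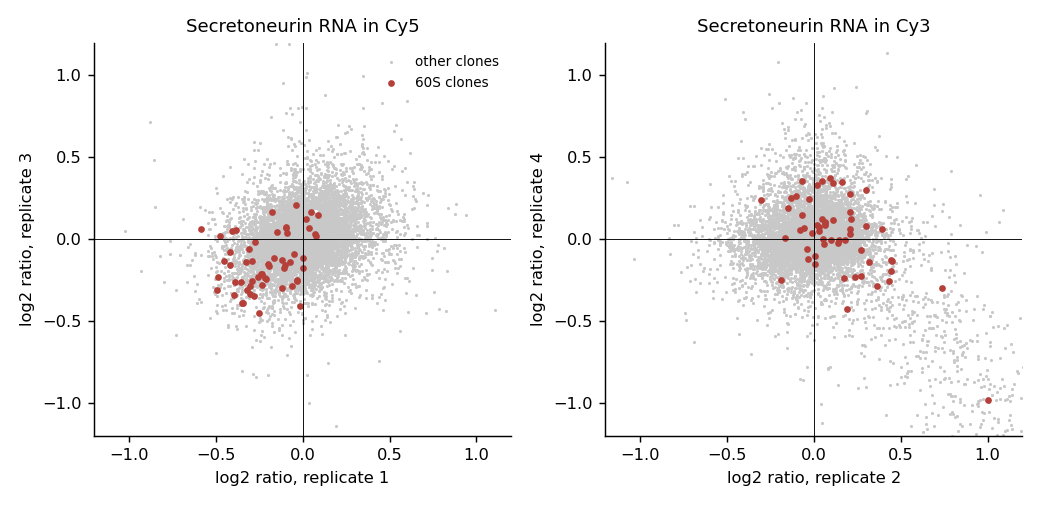
Log2 ratio of secretoneurin over control of each clone on replicate 3 against replicate 1 (left, secretoneurin in Cy5) and replicate 4 against replicate 2 (right, secretoneurin in Cy3), with 60S clones in red, other clones in grey and both axes limited to -1.2 to 1.2, which leaves some other clones out. Of the 60S clones, 39 lie below 0 on both replicates 1 and 3, and 31 have opposite signs on replicates 2 and 4, with L8 39o02 at the lower right.

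Across the 60S clones replicates 2 and 4 also opposed each other, with r = -0.60 (n = 56), or -0.43 (n = 55) without L8 39o02. Their rank correlation was -0.41, against -0.13 over all clones and 0.19 over 371 other clones of the brightest bin. Those 371 clones had a Pearson r of -0.38. Replicates 1 and 3 had r = 0.31 (n = 57), against 0.57 over other clones of the brightest bin. Replicates 1 and 2 had r = 0.37, against -0.0053 over all clones and -0.19 over other clones of the brightest bin. These correlations run across clones of 1 array pair, which share libraries and dyes, and are descriptions. Ratio and brightness had r = -0.14 over the 57 clones. By the plate number in the clone identifier, the 31 clones of plates 39 and 40 had a median of -0.051 and the 26 of other plates -0.066, so both sets lay on the same side.

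The proteins are taken here by role, in groups formed after the values were seen. The stalk, which calls translation factors to the ribosome, was measured by 5 clones of P1, P2 and L12, with a median of 0.017, 2 below 0 and 3 above. P1, an acidic protein of the stalk tip, was the one name with 3 or more clones whose fitted values were all above 0, with a mean of 0.051. P1 clone 40k12 had 0.0043, 0.30, -0.17 and 0.30 on replicates 1 to 4 and a fitted ratio of 0.11 ± 0.060 (SE, 4 arrays). P1 clone 39l14 had -0.089, 0.14, 0.040 and -0.023, with a fitted 0.017 ± 0.063. P1 clone 54j02, above background on 1 array in each group, had 0.072, -0.054, 0.032 and 0.071, with a fitted 0.030 ± 0.056. None of the P1 clones was above 0 on every array, and after median centring 40k12 and 39l14 stood at -0.0036 and -0.098. P2, the partner of P1, had 1 clone at -0.061 ± 0.076, with -0.32 on replicate 1 and 0.24 on replicate 4. L12, at the base of the stalk, stood at -0.11 ± 0.061 and was below 0 on 3 of 4 arrays.

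L5 and L11 bind 5S ribosomal RNA and enter the subunit together with it as 1 particle, and in mammals the free particle also restrains MDM2, an inhibitor of p53. Their 8 clones had a median of -0.059, with 6 below 0 and 2 above, but the names differed. The 3 clones of L11 were all below 0, with a mean of -0.12. L11 clone 39n21 had -0.30, 0.098, -0.33 and -0.0062, and a fitted ratio of -0.14 ± 0.055. L11 clone 61m07 had -0.45, 0.030, -0.13 and 0.072, with a fitted -0.12 ± 0.076. L11 clone 14c17 had -0.59, -0.10, 0.064 and 0.26, with a fitted -0.090 ± 0.14. All 3 were lowest on replicate 1 or 3, and 14c17 stood at 0.072 without replicate 1.

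L5 clones disagreed among themselves. The 4 clones above background in both groups averaged -0.00078. L5 clone 52l12 was above 0 on all 4 arrays, at 0.039, 0.39, 0.066 and 0.065, and its fitted ratio was 0.14 ± 0.077 (limma unadjusted p = 0.139). Its log2 signals were 10.75, 10.87, 12.01 and 10.47 in secretoneurin cells and 10.71, 10.47, 11.94 and 10.40 in control cells. Replicate 2 stood apart, and without it the fitted ratio was 0.059. It was 0.37 with first spots, which had no value on replicate 4, and 0.042 with second spots, which had values on all 4 arrays. It was also 0.062 with print-tip loess, 0.037 after median centring, 0.059 with ignored spots kept and 0.011 in the authors' deposited table. L5 clone 14d20 had -0.26, 0.18, -0.23 and -0.0041, with a fitted -0.079 ± 0.061. L5 clone 14o10 had -0.016, 0.45, -0.41 and -0.13, with a fitted -0.026 ± 0.13. L5 clone 52m08 had -0.38, 0.046, 0.058 and 0.12, with a fitted -0.038 ± 0.093. Its low value on replicate 1 came from 1 spot at -0.83, while the other spot of the clone read 0.067. L5 clone 53c11 also had a higher signal in secretoneurin cells on all 4 arrays, with mean log2 signals of 8.16 against 8.01. However, its control signal never rose well above background and its secretoneurin signal did so on 2 arrays only. These means therefore do not measure a fold.

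Proteins of the catalytic core and the exit tunnel, through which the new chain leaves, had a median of -0.025 over 9 clones, with 7 below 0 and 2 above. L3, which reaches the peptidyl transferase centre, stood at -0.072 ± 0.052 and -0.063 ± 0.079 in its 2 clones. Both were below 0 on replicates 1 and 3 and above 0 on replicates 2 and 4. L4, which lines the tunnel, had 1 clone at -0.017 ± 0.064 with the same signs. L35, at the mouth of the tunnel, had 2 clones at -0.025 ± 0.12 and -0.027 ± 0.071. The mean of L35 was -0.026, and it was 0.29 when spots marked to be ignored by the scanner software were kept. L39, a small protein of the tunnel wall, had the highest mean of the 29 names at 0.12 ± 0.12, with 0.091, 0.45, 0.15 and -0.19 on replicates 1 to 4. It was thus above 0 on 3 of 4 arrays. The value was -0.036 without replicate 2, 0.28 without replicate 4 and 0.014 after median centring.

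L8, also of the catalytic core, held the clone with the widest confidence interval of the group. L8 clone 39k13 had -0.49, 0.021, -0.31 and 0.090, and a fitted ratio of -0.17 ± 0.062 (limma unadjusted p = 0.047). It was below 0 where secretoneurin carried Cy5 and above 0 otherwise, and the fitted ratio was -0.11 with print-tip loess and -0.28 after median centring. L8 clone 14a14 had -0.16, 0.21, -0.11 and 0.060, with a fitted -0.0011 ± 0.058. L8 clone 39o02 had -0.037, 1.0, 0.21 and -0.98, with a fitted 0.049 ± 0.35. Its log2 signals were 8.23, 10.06, 9.42 and 7.96 in secretoneurin cells and 8.27, 9.06, 9.20 and 8.94 in control cells. The value was high on replicate 2 and low on replicate 4, and both spots agreed in sign on each of these arrays. Without replicate 2 limma called this clone lower, at -0.45 ± 0.089 (adjusted p = 0.0363), and without replicate 4 it called it higher, at 0.54 ± 0.089 (adjusted p = 0.0142). It was the 1 clone of the 60S group called in each of these fits. Without replicate 2 limma called 4.35% of all clones, 3.88% lower and 0.465% higher, and without replicate 4 it called 5.46%, 0.225% lower and 5.23% higher. Each of these fits has a single array with the dyes in that orientation, whose spread was taken from the other arrays.

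The clones placed at the interface with the small subunit, of L23 and L19, had fitted values below 0 in all 3, with a median of -0.14. None passed the test. Each protein was given a single role, so this group need not hold every protein of the interface. L23 takes part in a bridge between the subunits. L23 clone 39a13 was below 0 on all 4 arrays, at -0.30, -0.039, -0.29 and -0.061, and its fitted ratio was -0.17 ± 0.052 (limma unadjusted p = 0.0271). Its log2 signals were 11.90, 11.44, 12.15 and 12.42 in secretoneurin cells and 12.21, 11.48, 12.44 and 12.49 in control cells. The groups thus overlapped across arrays, although the control signal was the higher within each array. The fitted ratio was -0.091 with print-tip loess and -0.27 after median centring. L23 clone 40m23 had -0.42, 0.17, -0.079 and -0.24, with a fitted -0.14 ± 0.11. L19, which also bridges the subunits, had 1 clone at -0.13 ± 0.084, below 0 on 3 of 4 arrays and 0.25 on replicate 4, and -0.032 without replicate 2.

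The other 32 clones, for 17 further proteins that bind ribosomal RNA, had a median of -0.064, with 24 below 0 and 8 above. L7, one of them, gave the clone of smallest unadjusted p in the group. L7 clone 22l18 was below 0 on all 4 arrays, at -0.25, -0.19, -0.45 and -0.25, and in all 8 of its spots. Its log2 signals were 11.05, 9.16, 10.94 and 11.17 in secretoneurin cells and 11.30, 9.35, 11.39 and 11.42 in control cells. The fitted ratio was -0.29 ± 0.062, with a 95% confidence interval from -0.456 to -0.114 (limma unadjusted p = 0.00939 and adjusted p = 0.998). Leaving out an array gave values from -0.33 to -0.24. L7 clone 51o03 had -0.36, 0.11, -0.26 and 0.12, with a fitted -0.097 ± 0.054, so it followed the dye orientation where 22l18 did not. L7 clone 51m01 had no control signal well above background. The mean of the 2 L7 clones above background was -0.19.

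L6, a protein found in eukaryotes and not in bacteria, had the lowest mean of the 29 names, at -0.22 over 2 clones. L6 clone 60k12 had -0.34, -0.17 and -0.39 on replicates 1 to 3 and no value on replicate 4, where both its spots were marked to be ignored. The values on replicates 2 and 3 came from 1 spot each, and replicate 2 was the only array of this clone with secretoneurin in Cy3. Its fitted ratio was -0.27 ± 0.073 (SE, 3 arrays), and its signal exceeded background on 2 arrays in the secretoneurin channel and on 1 in the control channel. This clone was singled out after its values were seen. L6 clone 24e22 had -0.35, 0.27, -0.39 and -0.22, with a fitted -0.17 ± 0.10, and thus was above 0 on replicate 2 only.

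L18 and L35a were the remaining names with 3 or more clones. L18 clone 40d02 had -0.29, 0.21, -0.13 and 0.28, with a fitted 0.015 ± 0.060, and clone 40p02 had -0.075, -0.013, -0.14 and 0.037, with a fitted -0.047 ± 0.053. L18 clone 21g08 had no control signal well above background. L35a, mutated in some families with Diamond-Blackfan anaemia in humans, ranged from below to above 0. L35a clone 40j15 had -0.39, 0.028, -0.26 and 0.052, with a fitted -0.14 ± 0.057. L35a clone 40p23 had -0.31, 0.27, -0.060 and -0.067, with a fitted -0.041 ± 0.089. L35a clone 39h22 had -0.27, 0.74, -0.014 and -0.30, with a fitted 0.039 ± 0.19. The last was high on replicate 2 only, and stood at -0.22 without it. The fourth clone, 30b23, had no control signal well above background, and the 3 others averaged -0.048.

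**Figure D4:**
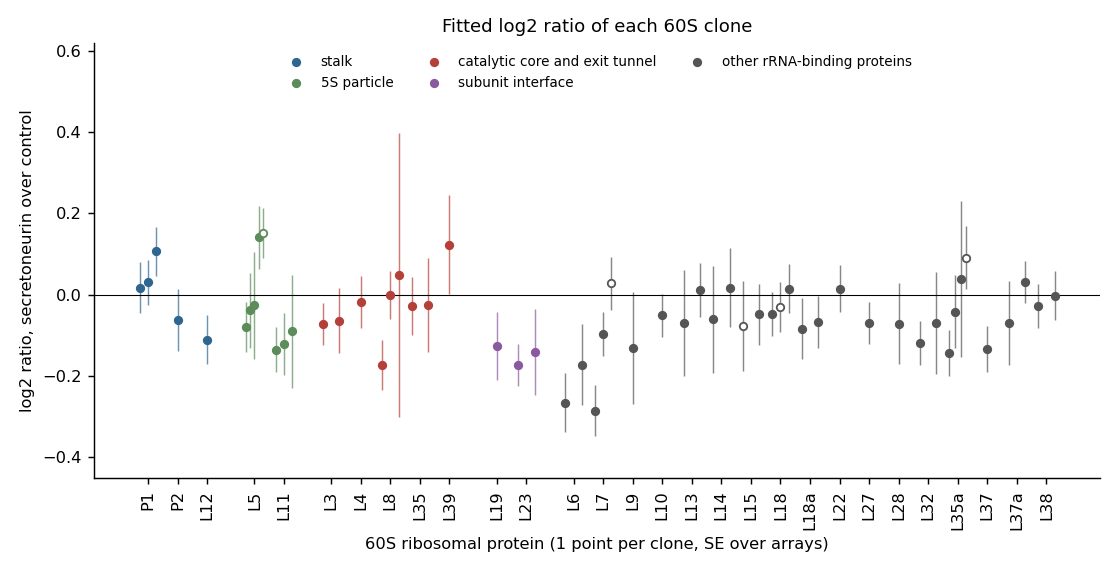
Fitted log2 ratio of secretoneurin over control (y axis, bars are the SE over arrays) of each 60S clone by protein name and by role (x axis and colours), with open symbols for the 5 clones not above background in control cells on any array, whose values are not measured folds. The lowest point is L7 22l18 at -0.29. The clones of L6, L11, L19 and L23 all lie below 0, as do those of several other names, such as L3, L18a, L32, L35 and L38. The 3 clones of P1 lie above 0.

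Among the names with 1 or 2 clones, L9, close to the site where elongation factors bind, stood at -0.13 ± 0.14, with -0.48 and -0.30 on replicates 1 and 2 but 0.021 and 0.24 on replicates 3 and 4. Without replicate 2 it stood at 0.0043. L37 stood at -0.13 ± 0.057 and was below 0 on 3 of 4 arrays. L10, which joins the subunit late in its assembly, stood at -0.051 ± 0.053. The means of 2 clones each were -0.094 for L32, -0.075 for L18a, -0.029 for L13, -0.021 for L14, -0.019 for L37a and -0.015 for L38, which in mice is needed for the translation of certain Hox mRNAs. Of the 2 L15 clones, 53f19 had no control signal well above background, and the other stood at -0.049 ± 0.074. Single clones stood at -0.072 ± 0.10 for L28, -0.070 ± 0.052 for L27 and 0.015 ± 0.057 for L22, which has near relatives in vertebrates. None of these passed the test. Of the 29 name means, 17 changed sign under some alternative setting or without 1 array. Of the 18 names with more than 1 clone, 10 had all clones on 1 side of 0 and 8 had clones on both sides.

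Other parts of the translation machinery were set beside the 60S clones. The 57 clones of the small (40S) subunit had a median of -0.050, with 43 below 0 and 14 above, and array medians of -0.23, 0.076, -0.13 and 0.083. They had the 60S array pattern with a median dye term of -0.15, and limma called 0 of them. Mitochondrial ribosomal proteins, 18 clones of which 0 exceeded background in both channels of every array, had a median of 0.0099 with 7 below 0 and 11 above. Elongation factors, which feed tRNA to the ribosome and move it along, had a median of -0.022 over 17 clones, with array medians of 0.024, -0.051, 0.046 and -0.11. These signs are opposite to those of the 60S clones on all 4 arrays, but only 3 of the 17 clones exceeded background in both channels of every array. Initiation factors had a median of -0.015 over 31 clones, and 8 clones of the nucleolus and ribosome assembly had -0.067 with 6 below 0. In each of these 2 lists 1 clone exceeded background in both channels of every array. limma called 0 clones in each of these lists, and differences between the lists were not tested. Pituitary hormone clones had a dye term of 0.27, opposite in sign to that of the 60S clones, and a fitted median of -0.047 with all 4 below 0. Red blood cell, muscle and leukocyte clones had medians of 0.043, -0.00081 and -0.031. Their part in the 60S values was not tested.

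**Figure D5:**
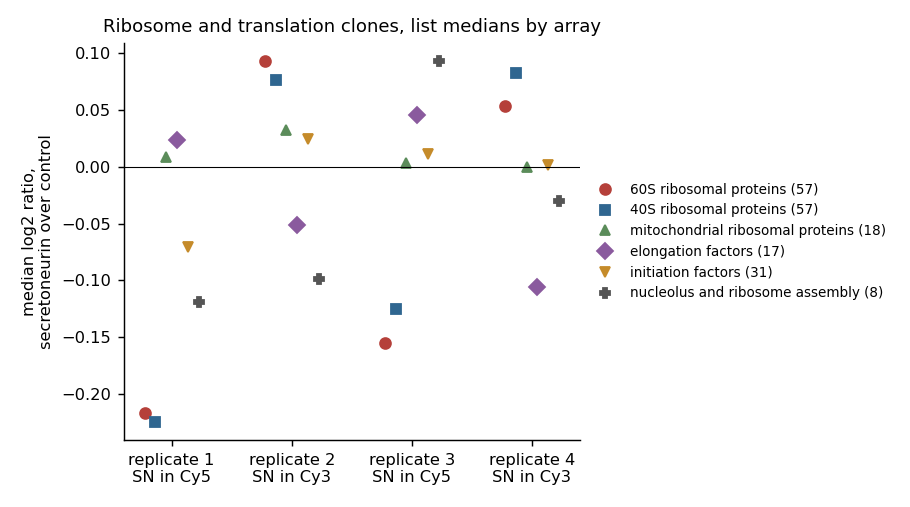
Median log2 ratio of secretoneurin over control (y axis) on each array (x axis) for lists of ribosome and translation clones, with the number of clones tested in brackets in the legend. The 60S and 40S medians lie together on every array, between -0.23 and 0.093, below 0 where secretoneurin carried Cy5 and above 0 where it carried Cy3.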

How the data were processed

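RNA of secretoneurin and control cells was compared on 4 two-colour cDNA arrays, 2 per dye orientation, each with 16200 gene spots. Per the file headers, the scanner output deposited for each array gives linear spot intensity, local background and background SD in both channels, and it marks spots that should be ignored. A value table of log2 ratios that the authors deposited, of unstated normalization, was read as Cy5 over Cy3, had column medians of 0.016, 0.047, 0.020 and -0.032 and correlated at 0.840 to 0.865 with the ratios computed here. This table served as an alternative only.

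Background was corrected with normexp (offset 50) and ratios were normalized by loess over each whole array with a span of 0.3 and 4 iterations, all in limma 3.58.1 (R 4.3.3). Weight 0 was given to ignored spots, which numbered 421, 720, 981 and 718 over replicates 1 to 4, and to the 1128 spots of each array that were controls or empty. Spots of a clone were averaged, ratios were turned to secretoneurin over control, and lmFit and eBayes fitted a secretoneurin and a dye effect per clone (2 residual degrees of freedom, two-sided, Benjamini-Hochberg over all tested clones, threshold 0.05). A channel was above background when the signal exceeded background plus 2 background SDs. The number of arrays limits the precision.

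The rule named every 60S protein name with its mean, each clone of names with 3 or more clones, and up to 8 clones per direction that kept 1 sign over the 4 arrays, by rising unadjusted p, of which there were 2 in each direction. The members and lists were chosen with earlier results of these data known, and the role groups, the plates and the array patterns were added after the values were seen. Clone names are those of the array design, and no clone sequences were used here.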

Additional observations from a re-analysis of the deposited data

Results flagged for a closer look

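The values on the 4 arrays were examined by Dixon's criterion for 28 of the 60S clones, 29 name means and 2 summaries of the group. Of these 59 sets, 2 had an array far from the other 3. Chance alone sets apart about 1 in 20 groups when the 4 values are alike in kind. The arrays here differ in dye orientation and the sets share clones, so that rate is a rough guide only. The log2 ratio of L5 clone 52l12 was 0.39 on replicate 2, while the other 3 arrays lay between 0.039 and 0.066. The log2 ratio of L5 clone 52m08 was -0.38 on replicate 1, while the other 3 lay between 0.046 and 0.12. In the latter case 1 of the 2 spots carried the low value.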

How the results depend on the processing

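limma called 0 of the 60S clones for secretoneurin under every alternative that kept all 4 arrays, and 0 to 1 when an array was left out (0 to 437 over all clones, 0 to 2 of the 60S clones for the dye effect). With replicate 4 turned, added after the data were seen, it called 1 clone of all, not of the 60S group. The number of 60S clones below 0 ran from 33 to 44 without 1 array, their median from -0.074 to -0.034 and their difference from equally bright clones from -0.051 to -0.014. Without the dye term as well, added after the data were seen, these ran from 29 to 49, from -0.099 to -0.0086 and from -0.074 to 0.022, a change of sign. Part of the dye effect enters these fits, since their dye orientations are unequal in number. The fits share most of their arrays, so these ranges do not measure the spread between arrays. That spread, taken over both dye orientations and so including the dye difference, is larger than the values of the median and of the difference. With first spots only the median was -0.039. Of 29 clones followed one by one, all from names with more than 1 clone, 17 changed sign under some alternative. Names with 1 clone were followed through their name means. P1 39l14 stood at -0.0020 with print-tip loess, -0.098 after median centring and -0.0049 with first spots, P1 40k12 at -0.0036 after median centring and P1 54j02 at -0.0071 with second spots. L5 14o10 stood at 0.0054 in the authors' table and 0.037 with first spots, and L5 52m08 at 0.10 with second spots. L8 14a14 stood at 0.0023 without background correction, 0.063 with second spots and 0.0031 with ignored spots kept, and L8 39o02 at -0.051 in the authors' table and -0.070 with second spots. With first spots L11 14c17 stood at 0.045, L11 61m07 at 0.012, L18 40p02 at 0.042 and L35a 39h22 at -0.0057. After median centring L18 40d02 stood at -0.099 and L35a 39h22 at -0.070. L18 40d02 was also -0.0018 without background correction, -0.0098 in the authors' table and -0.028 with print-tip loess. Without 1 array, values ran from -0.024 to 0.058 for 39l14, -0.00069 to 0.061 for 54j02, -0.17 to 0.12 for 14o10, -0.15 to 0.072 for 52m08, -0.13 to 0.00051 for 53k15, -0.13 to 0.029 for 39c22, -0.17 to 0.12 for 21g19, -0.084 to 0.030 for 39c21, -0.039 to 0.037 for 14a14, -0.45 to 0.54 for 39o02, -0.25 to 0.072 for 14c17, -0.025 to 0.055 for 40d02, -0.22 to 0.30 for 39h22 and -0.13 to 0.043 for 40p23. With ignored spots kept L15 39c22 stood at 0.028 and L35 39c21 at 0.60. The cause of these changes was not tested. The ratios pair both RNAs by array, and no further block was fitted, since the dye orientations share no replicate number.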
